A study of Homo sapiens with 11 samples.

Results

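Glycolysis and hypoxia response genes were followed in hTert-HME1 cells, mammary epithelial cells of human origin that telomerase has made immortal, whose total RNA had been sequenced after removal of ribosomal RNA. The set was chosen by name: 35 symbols that cover glucose uptake, the glycolytic enzymes, the handling of pyruvate and lactate, and targets of the hypoxia-inducible factor HIF. All 35 were found among the 40460 genes of the table. A gene counted as a member when its value reached 10 on the linear scale in at least 2 libraries, and 34 of the 35 did. Just inside this threshold was ANKRD37, with log2 values between 4.87 and 5.52 over the 11 libraries. Just outside it was MIF, a cytokine gene, with log2 values between 2.33 and 3.06. MIF entered no test.

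Glycolysis splits glucose into pyruvate and yields ATP without oxygen. Its enzymes are among the classic targets of HIF1A, the oxygen-regulated subunit of HIF, which the prolyl hydroxylases EGLN1 and EGLN3 mark for destruction while oxygen is present. Growth factors such as epidermal growth factor (EGF) are known to raise glucose uptake and glycolysis, in part through MYC and HIF. The same genes therefore answer to both oxygen and growth factor supply.

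Cells were transfected with a control siRNA ("control-2" in the labels) or an siRNA against BRCA2 ("BRCA2-1"), a gene of homologous recombination, and grown in mammary epithelial growth medium with or without EGF. All were at passage 6. The 4 groups were control siRNA with EGF (replicates A, B and C), control siRNA without EGF (A and C only), BRCA2 siRNA with EGF (A, B and C) and BRCA2 siRNA without EGF (A, B and C). The labels call the letters biological replicates. All groups share 1 immortalised line. With 1 siRNA per target, what an siRNA does to BRCA2 and what it does to other transcripts cannot be told apart. No label gives an oxygen condition, and the time without EGF is not given in the sources used here.

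The table gives log2 values and no counts, and library depth is unknown. No scaling per gene length is stated, so levels were compared between libraries and never between genes. BRCA2 (ENSG00000139618) was no lower where the label is BRCA2 siRNA. Its log2 values there were 12.37 to 12.43 with EGF, against 12.13 to 12.48 in control libraries, and 12.11 to 12.48 without EGF, against 11.44 and 11.65. The first principal component held 65.9% of the variance and placed both control libraries without EGF farthest from those with EGF. Both replicate C libraries with EGF lay nearer to the libraries without it, at -15.62 and -20.72, than the other 4 with EGF, at -41.06 to -35.42. Of the basal epithelial markers fixed for the line all 11 passed the value threshold, while 6 of 11 luminal markers did. Fibroblast markers passed in 8 of 9 cases, with COL1A2 below the threshold at 1.31 to 1.84. Leukocyte and endothelial markers passed in 2 of 7 cases, and PTPRC, the pan-leukocyte gene, did not, with 2.33 to 3.10. The log2 of the summed level of the fibroblast markers was 11.26 to 11.57 in control libraries with EGF, 13.43 and 13.53 in those without, 11.42 to 11.52 with BRCA2 siRNA and EGF, and 12.41 to 13.12 with BRCA2 siRNA without EGF. That of the leukocyte and endothelial markers, in the same order, was 7.54 to 8.64, 10.23 and 10.45, 7.58 to 8.51, and 8.20 to 8.80. Both sums were highest in the control libraries without EGF. So was that of the basal epithelial markers, at 19.95 and 20.07 against 19.25 to 19.84 over the other groups. The luminal sum was not, at 12.22 and 12.25 against 12.38 to 12.63 in control libraries with EGF. The part of these sums in the members' differences was not tested. In a bulk measurement, fewer cells with a transcript and less of it per cell cannot be told apart.

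On the scale of the deposited values, EGF withdrawal lowered most of the glycolytic chain under the control siRNA while the main glucose transporter gene rose. Of the 34 members, 20 were lower and 3 higher without EGF at an adjusted p of at most 0.05 (limma, Benjamini-Hochberg over 17950 genes, n = 2 without and 3 with EGF). Of all genes tested, 26.1% were lower and 24.7% higher, 50.8% in either direction. The members' median log2 difference was -0.36, beside 0.00 for all genes. Under the BRCA2 siRNA 10 members were lower and 3 higher (n = 3 and 3), where 13.8% of all genes were lower and 13.4% higher, 27.1% in either direction, and the median was -0.20. The comparisons under either siRNA share no library, but they share a common estimate of spread and the centring of replicate A. With EGF, deviations of the same letter correlated between siRNAs, at 0.695 for B and 0.7 for C. The 2 comparisons are thus not independent. SLC2A1 and ADM were higher in both, and 9 members were lower in both: SLC2A3, HK1, PFKP, ALDOC, TPI1, ENO1, LDHB, BNIP3 and EGLN1. These 9 are 45% of the 20 and 90% of the 10. The same overlap over all genes was not counted, so these shares are a description only. Under quantile normalization the split was 4 higher and 13 lower with control siRNA and 3 higher and 4 lower with BRCA2 siRNA. Of the 17857 genes tested then, 3838 were higher and 4291 lower with control siRNA. With BRCA2 siRNA 2035 of them were higher and 1994 lower, so the 4 lower members were near the share of all genes. ALDOA, HK2, PGAM1, PGK1, PDK1, HIF1A and P4HA1 then lost their calls with control siRNA. With BRCA2 siRNA HK1, PFKP, PFKM, TPI1, LDHB and EGLN1 lost theirs. Of the 9 members, only SLC2A3, ALDOC, ENO1 and BNIP3 then stayed lower in both. With a term for replicate A the split was 2 and 20, and 1 and 9. Over all genes it was 4063 and 4372, and 1926 and 2011. ADM, HK2 and EGLN1 then lost their calls with BRCA2 siRNA, and EGLN3 its call with control siRNA. With replicates B and C alone SLC2A1, ADM, SLC2A3, PFKP, LDHB and BNIP3 passed under control siRNA, and no member did under BRCA2 siRNA. In that fit, and in each fit that leaves out control replicate A or C without EGF, the control group without EGF is 1 library, which is assumed to vary like the other groups. Without the 2 replicate C libraries with EGF, 24 and 16 members passed, and without the 2 replicate B libraries with EGF 23 and 15. Over all genes 10227 and 6657 of 17889 passed without C, and 9181 and 4951 of 17884 without B, beside 9123 and 4873 of 17950 in the reported fit.

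**Figure D1:**
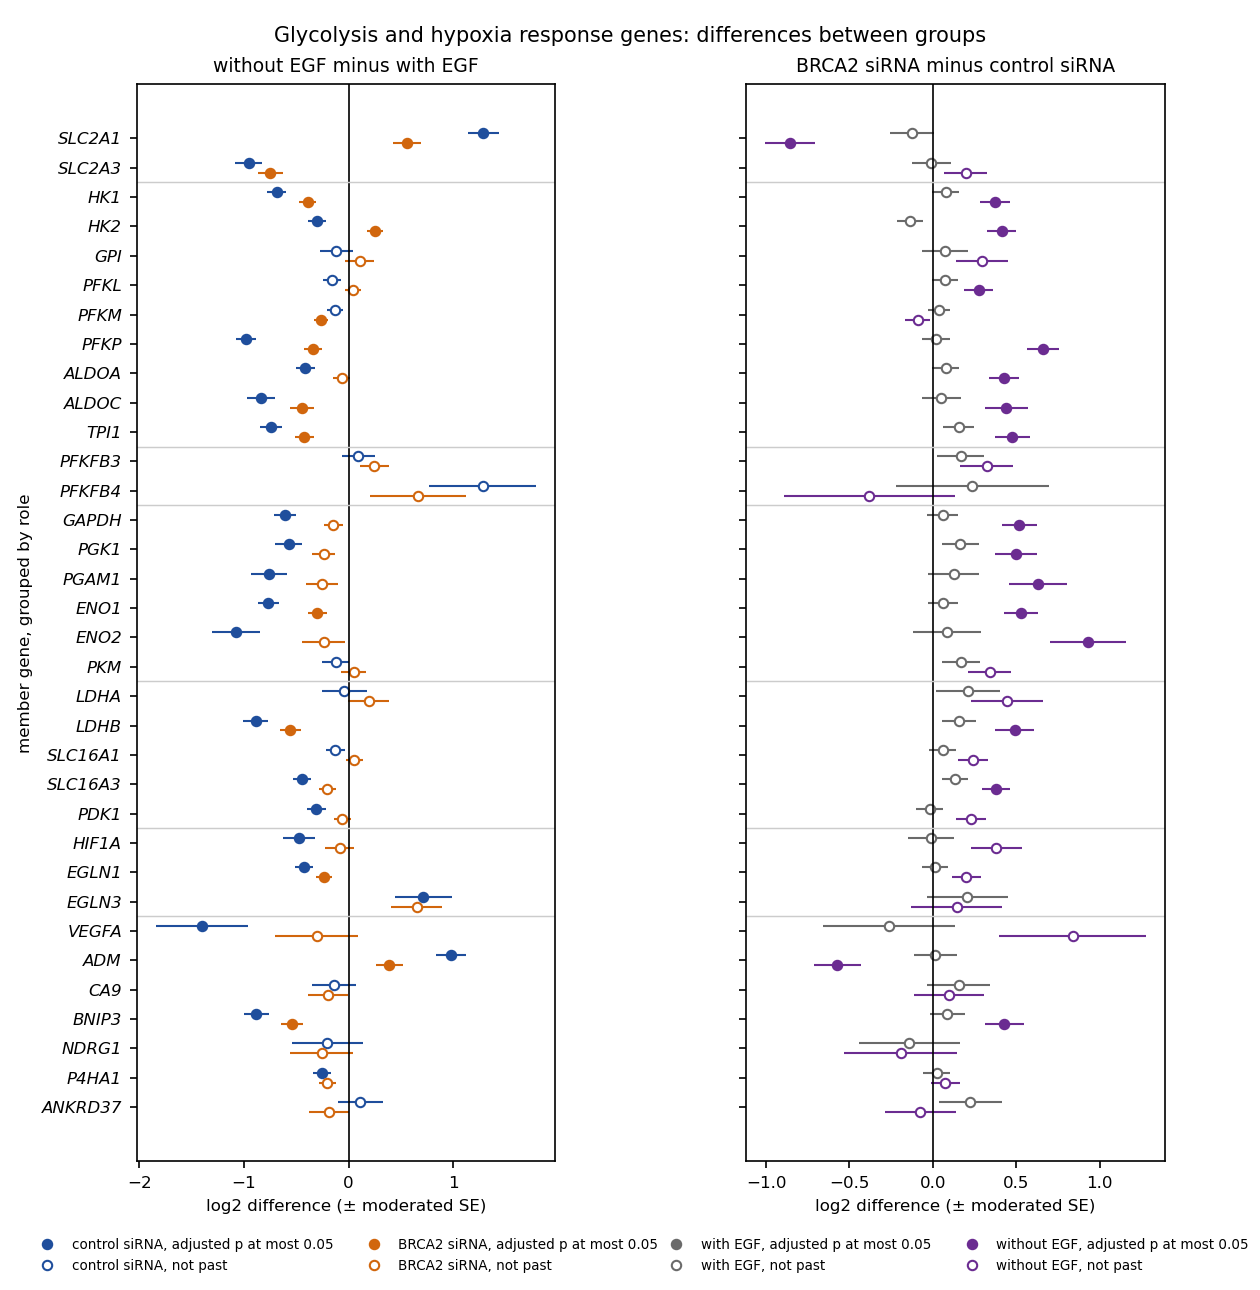
Log2 difference with its moderated standard error for each of the 34 members, ordered by role. Left, without EGF minus with EGF under each siRNA; right, libraries labelled BRCA2 siRNA minus control in each medium; filled circles have an adjusted p of at most 0.05. Without EGF and with control siRNA 20 members lie significantly below 0, and SLC2A1, ADM and EGLN3 above.

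The 2 glucose transporter genes moved in opposite directions. SLC2A1 (ENSG00000117394) encodes GLUT1, the transporter for basal glucose entry. Its log2 values in control replicates A, B and C with EGF were 11.92, 12.05 and 11.79, and both control libraries without EGF had 13.21. Every library without EGF was above every library with it, and the difference was 1.29 ± 0.15 (2.44-fold, limma adjusted p = 6.01e-05). In the libraries labelled BRCA2 siRNA the values were 11.79, 11.84 and 11.77 with EGF and 12.04, 12.35 and 12.68 without. These did not overlap either, but the rise was 0.56 ± 0.13 (1.47-fold, limma adjusted p = 0.0121) and spread widely between replicates. SLC2A3 (ENSG00000059804), which encodes the high-affinity transporter GLUT3, had 10.20, 10.07 and 10.05 in control libraries with EGF and 9.11 (A) and 9.20 (C) without. It fell by 0.96 ± 0.13 on the log2 scale (1.94-fold, limma adjusted p = 0.000169). Under BRCA2 siRNA it went from 10.36, 9.92 and 10.01 to 9.22, 9.36 and 9.46, a fall of 1.68-fold, with no overlap. Both genes kept these calls when any of the 11 libraries was left out.

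Hexokinases, which trap glucose as glucose 6-phosphate, gave unlike results. HK1 (ENSG00000156515), the housekeeping form, had 14.91, 14.93 and 14.69 with EGF and 14.14 and 14.17 (A and C) without under control siRNA, a fall of 0.69 ± 0.09 on the log2 scale (limma adjusted p = 0.000142). In libraries labelled BRCA2 siRNA it had 14.97, 14.88 and 14.91 with EGF and 14.60, 14.54 and 14.45 without, and fell by 0.39 ± 0.08. That BRCA2 siRNA call was lost under quantile normalization. No library without EGF reached the range with EGF in either case. HK2 (ENSG00000159399), the inducible form and a known HIF target, moved in opposite directions. With control siRNA it went from 12.23, 12.20 and 12.28 to 11.91 and 11.97, and fell by 0.30 ± 0.09 (limma adjusted p = 0.0141). With BRCA2 siRNA it went from 12.07, 12.12 and 12.10 to 12.50, 12.34 and 12.22, and rose by 0.25 ± 0.08 (limma adjusted p = 0.0323). The groups did not overlap in either comparison, but both changes are small. Under quantile normalization HK2 lost its call with control siRNA. Its BRCA2 siRNA call was lost without the low-value filter or the mean-variance trend. The same call was lost with a term for replicate A and with the 2 groups compared fitted alone. The control siRNA call was lost without control replicate A or C without EGF (adjusted p up to 0.527 over all alternatives). The BRCA2 siRNA call was lost on leaving out any of 6 libraries: control replicate A or C without EGF, BRCA2 siRNA replicate A or C with EGF, or BRCA2 siRNA replicate A or B without EGF (adjusted p up to 0.419).

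Among the next steps down to triose phosphate, 1 phosphofructokinase isoform passed under both siRNAs. PFKP (ENSG00000067057), the platelet form of the committing enzyme of glycolysis, had 12.52, 12.53 and 12.29 with EGF and 11.51 (A) and 11.43 (C) without under control siRNA, and fell by 0.98 ± 0.10 on the log2 scale (1.97-fold, limma adjusted p = 2.63e-05). Under BRCA2 siRNA it had 12.51, 12.52 and 12.38 with EGF and 12.22, 12.13 and 12.03 without, and fell by 0.34 ± 0.09. The liver form PFKL passed the test under neither siRNA, with -0.16 ± 0.09 and 0.04 ± 0.08. The muscle form PFKM gave -0.13 ± 0.08 with control siRNA, which did not pass, and fell by 0.26 ± 0.07 with BRCA2 siRNA (limma adjusted p = 0.0169). GPI, which turns glucose 6-phosphate into fructose 6-phosphate, gave -0.12 ± 0.16 and 0.11 ± 0.14 and passed in neither. Under quantile normalization PFKP and PFKM lost their calls with BRCA2 siRNA. The BRCA2 siRNA call of PFKP was lost without BRCA2 siRNA replicate A with EGF or C without (adjusted p up to 0.198), and that of PFKM without BRCA2 siRNA replicate A with EGF or B without (up to 0.292).

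ALDOC (ENSG00000109107), an aldolase that cleaves fructose 1,6-bisphosphate, had 10.54, 10.22 and 10.58 in control libraries with EGF and 9.57 (A) and 9.65 (C) without, a fall of 0.84 ± 0.13 on the log2 scale (limma adjusted p = 0.00037). With BRCA2 siRNA the values were 10.61, 10.29 and 10.61 with EGF and 10.09, 10.07 and 9.99 without, a fall of 0.45 ± 0.12. TPI1 (ENSG00000111669), triose phosphate isomerase, had 15.10, 14.98 and 14.99 against 14.22 and 14.33 with control siRNA and fell by 0.74 ± 0.11 (limma adjusted p = 0.000197). In libraries labelled BRCA2 siRNA it had 15.34, 14.97 and 15.21 with EGF and 14.76, 14.76 and 14.74 without, and fell by 0.42 ± 0.09. Quantile normalization ended this BRCA2 siRNA call of TPI1. For both genes the libraries without EGF lay below all those with it. ALDOA, the main aldolase, fell by 0.41 ± 0.09 with control siRNA (limma adjusted p = 0.00309) and gave -0.07 ± 0.08 with BRCA2 siRNA, where the groups overlapped. Its control siRNA call was lost under quantile normalization. Another annotated gene on its strand covers 42.3% of the exon bases of ALDOA in GENCODE 29, so the counting could mix them. The ALDOC call with BRCA2 siRNA was lost without BRCA2 siRNA replicate A with EGF or C without (adjusted p up to 0.255).

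The bifunctional enzymes that set fructose 2,6-bisphosphate, the activator of phosphofructokinase, did not pass in the fit with all libraries. PFKFB3 gave 0.09 ± 0.16 with control siRNA and 0.25 ± 0.14 with BRCA2 siRNA. PFKFB4 (ENSG00000114268) gave 1.28 ± 0.51 (limma adjusted p = 0.0557) and 0.66 ± 0.46 (0.297). Its libraries with EGF were widely spread, from 7.60 to 9.40. It passed with control siRNA under quantile normalization, and without BRCA2 siRNA replicate B or C with EGF or control replicate C with EGF (adjusted p down to 0.00158 over all alternatives).

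In lower glycolysis, where ATP is made, 5 of 6 members were lower under control siRNA, where 26.1% of all genes were. Under BRCA2 siRNA 1 of 6 was lower, near the 13.8% of all genes. The test of the difference between siRNAs passed for none of the 6. ENO1 (ENSG00000074800), enolase, had 17.44, 17.39 and 17.32 with EGF and 16.56 (A) and 16.67 (C) without in control libraries, and fell by 0.77 ± 0.10 on the log2 scale (limma adjusted p = 0.000122). With BRCA2 siRNA it had 17.54, 17.35 and 17.42 with EGF and 17.23, 17.12 and 17.07 without, and fell by 0.30 ± 0.09 (limma adjusted p = 0.0298). In neither case did the groups overlap. The ENO1 call with BRCA2 siRNA was lost with the 2 groups compared fitted alone. ENO2 (ENSG00000111674), the enolase otherwise typical of neurons and a HIF target, had 8.97, 8.46 and 9.24 against 8.0 and 7.63, and fell by 1.08 ± 0.23 (2.11-fold, limma adjusted p = 0.00251). With BRCA2 siRNA the ENO2 values of 9.11, 8.62 and 9.21 with EGF overlapped 8.63, 8.84 and 8.75 without, and the difference was -0.24 ± 0.20. PGAM1 (ENSG00000171314), phosphoglycerate mutase, had 13.97, 13.70 and 14.19 against 13.11 and 13.27 with control siRNA and fell by 0.76 ± 0.17 (limma adjusted p = 0.00369). Under BRCA2 siRNA it had 14.27, 13.72 and 14.25 against 13.89, 13.85 and 13.72, which overlapped. The control siRNA call of PGAM1 was lost under quantile normalization. PGAM4, a near copy of PGAM1 with which reads may be shared, gave -0.61 ± 0.20 with control siRNA, so the split between them is uncertain. The PGAM4 call was lost without control replicate A or C with EGF, or A or C without (adjusted p up to 0.387).

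GAPDH and PGK1, the oxidation step and the following ATP-forming kinase, fell by 0.61 ± 0.10 and 0.57 ± 0.13 with control siRNA (limma adjusted p = 0.000685 and 0.00318). The PGK1 call was lost under quantile normalization. With BRCA2 siRNA GAPDH and PGK1 gave -0.15 ± 0.09 and -0.24 ± 0.11, and neither passed. Under that siRNA replicate B stood apart: within B the differences were 0.01 for GAPDH, 0.05 for PGK1, 0.13 for PGAM1 and 0.21 for ENO2, while within A and C all 4 genes were lower without EGF, with differences from -0.53 to -0.14. PKM, pyruvate kinase, passed in neither comparison, with -0.12 ± 0.13 and 0.05 ± 0.12. GAPDH is often used as a reference gene. In these libraries its log2 value was 16.08 to 16.11 in control libraries with EGF and 15.44 and 15.54 without, and so differed between media. The ENO1 call with BRCA2 siRNA was lost without BRCA2 siRNA replicate A or C with EGF, or B or C without (adjusted p up to 0.29).

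**Figure D2:**
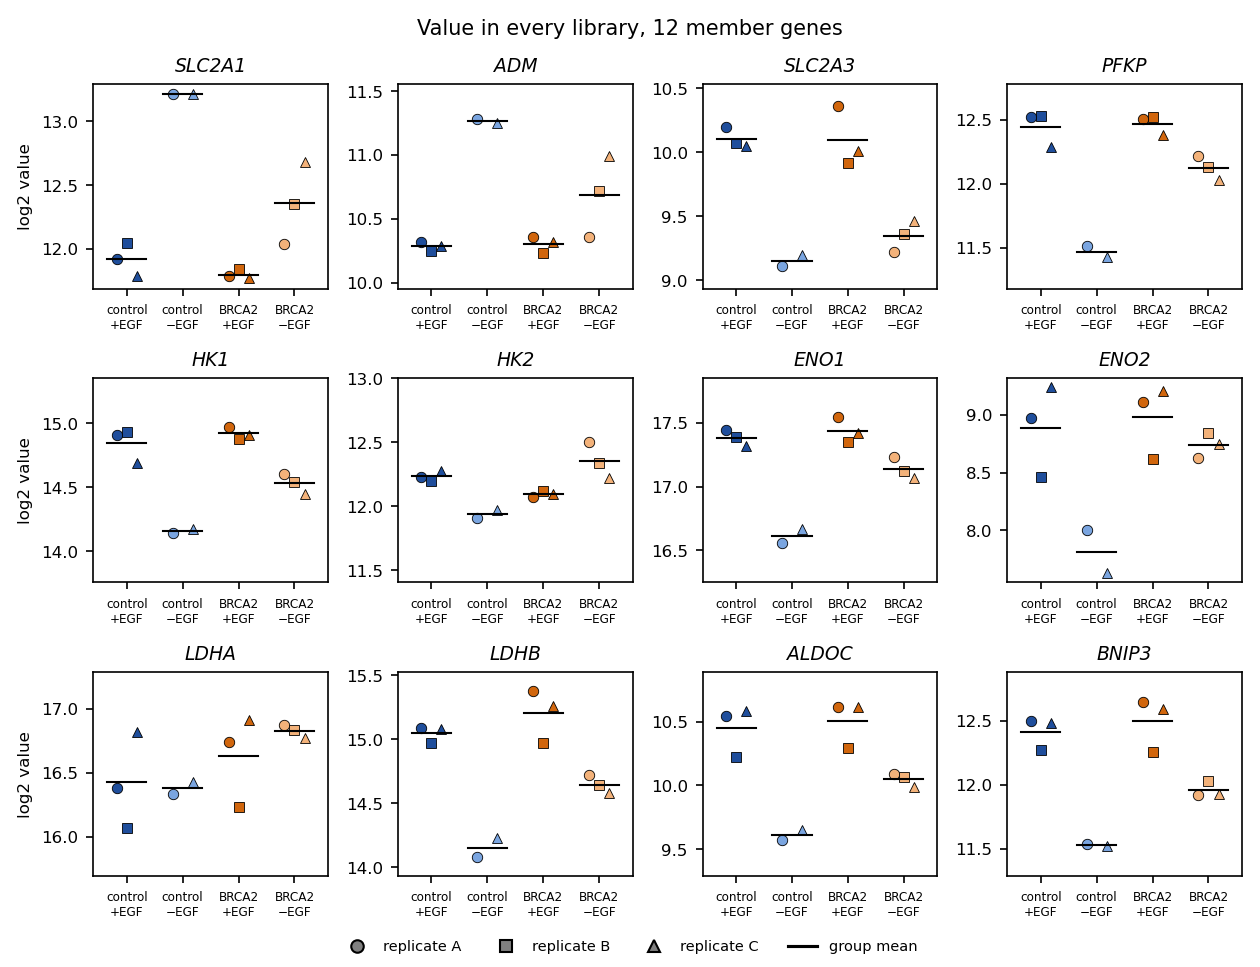
Log2 value in every library for 12 members, with 1 panel a gene and 1 column a group; circles are replicate A, squares B, triangles C, and bars are group means. SLC2A1 and ADM rise without EGF, and the 2 control libraries without EGF are the lowest of all 11 for PFKP, HK1, ENO1, LDHB and BNIP3.

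Of the genes that decide the fate of pyruvate, LDHB passed under both siRNAs and LDHA under neither. LDHB (ENSG00000111716), the lactate dehydrogenase subunit that favours lactate use, had 15.09, 14.97 and 15.08 with EGF and 14.08 (A) and 14.23 (C) without in control libraries, and fell by 0.89 ± 0.12 on the log2 scale (1.85-fold, limma adjusted p = 0.000121). In libraries labelled BRCA2 siRNA it had 15.38, 14.97 and 15.26 with EGF and 14.72, 14.64 and 14.58 without, and fell by 0.56 ± 0.10. This BRCA2 siRNA call was lost under quantile normalization. Another annotated protein-coding gene on its strand covers 33.4% of the exon bases of LDHB in GENCODE 29, so the counting could mix them. LDHA (ENSG00000134333), the subunit that favours lactate formation and a HIF target, passed in neither comparison. Its values were 16.38, 16.07 and 16.82 with EGF and 16.33 and 16.43 without under control siRNA, which overlapped, with a difference of -0.04 ± 0.22. With BRCA2 siRNA they were 16.74, 16.23 and 16.91 against 16.87, 16.83 and 16.77, a difference of 0.19 ± 0.19. The pseudogene LDHAP2, whose reads could be shared with LDHA, rose by 1.5 ± 0.19 with control siRNA. SLC16A3 (MCT4), the lactate exporter, fell by 0.45 ± 0.09 with control siRNA (limma adjusted p = 0.00141) and gave -0.20 ± 0.08 with BRCA2 siRNA. SLC16A1 (MCT1) gave -0.13 ± 0.09 and 0.06 ± 0.08 and passed in neither. PDK1, the kinase that closes the pyruvate dehydrogenase gate, fell by 0.31 ± 0.09 with control siRNA (limma adjusted p = 0.0146) and gave -0.06 ± 0.08 with BRCA2 siRNA. PDK1 lost this control siRNA call with the 2 groups compared fitted alone. Its control siRNA call was lost under quantile normalization, and without control replicate A or C without EGF.

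Of the oxygen-sensing members, HIF1A fell by 0.48 ± 0.16 on the log2 scale with control siRNA (limma adjusted p = 0.0238) and gave -0.08 ± 0.14 with BRCA2 siRNA. Quantile normalization ended the control siRNA call. The call was lost without control replicate A or B with EGF, or A or C without (adjusted p up to 0.317). EGLN1, the main HIF prolyl hydroxylase, fell by 0.42 ± 0.09 with control siRNA (limma adjusted p = 0.00202) and by 0.23 ± 0.08 with BRCA2 siRNA (0.0434). Quantile normalization ended the call with BRCA2 siRNA. So did a fit without low-value filter, without mean-variance trend, with a term for replicate A, or of the 2 groups alone. The second of these calls held only on leaving out control replicate B or C with EGF or BRCA2 siRNA replicate C with EGF, and was lost without any other library (adjusted p up to 0.321). EGLN3 (ENSG00000129521), itself induced by HIF, had 8.15, 7.69 and 8.54 with EGF and 8.67 (A) and 9.02 (C) without in control libraries. It rose by 0.71 ± 0.27 (limma adjusted p = 0.0468), without overlap. With BRCA2 siRNA it had 8.51, 7.82 and 8.67 against 8.86, 8.90 and 9.20, and gave 0.65 ± 0.24 (0.0676), also without overlap. The EGLN3 call with control siRNA ended without low-value filter or mean-variance trend, with a term for replicate A, and with the 2 groups alone. The EGLN3 call held only on leaving out control replicate C with EGF or BRCA2 siRNA replicate B or C with EGF (adjusted p up to 0.252).

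Of the other HIF targets 3 of 7 were lower under control siRNA, 1 was higher and 3 did not pass, where 26.1% of all genes were lower and 24.7% higher. ADM (ENSG00000148926) encodes adrenomedullin, a vasodilator peptide. It had 10.32, 10.25 and 10.29 with EGF and 11.28 (A) and 11.25 (C) without in control libraries, and rose by 0.98 ± 0.14 on the log2 scale (1.97-fold, limma adjusted p = 0.000258). Under BRCA2 siRNA it had 10.36, 10.23 and 10.32 with EGF and 10.36, 10.72 and 10.99 without, and rose by 0.39 ± 0.13 (limma adjusted p = 0.0433). Replicate A carried almost none of that rise, at 10.36 in both media. The BRCA2 siRNA call was lost without the low-value filter or the mean-variance trend. It was lost as well with a term for replicate A and with the 2 groups compared fitted alone. The call held only on leaving out BRCA2 siRNA replicate A without EGF or control replicate B or C with EGF (adjusted p up to 0.151).

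BNIP3 (ENSG00000176171), a mitophagy receptor, had 12.50, 12.27 and 12.48 with EGF and 11.54 (A) and 11.52 (C) without in control libraries, and fell by 0.88 ± 0.12 on the log2 scale (limma adjusted p = 0.000138). In libraries labelled BRCA2 siRNA it had 12.65, 12.26 and 12.59 against 11.92, 12.03 and 11.93, and fell by 0.54 ± 0.11. In both comparisons the groups were apart. The pseudogene BNIP3P1 fell by 1.07 ± 0.14 with control siRNA, and reads may be shared between them. VEGFA (ENSG00000112715), the angiogenic growth factor gene, had 13.21, 13.54 and 11.96 with EGF and 11.47 (A) and 11.53 (C) without in control libraries. The fall of 1.41 ± 0.44 (2.65-fold, limma adjusted p = 0.0203) was the largest of the members in size, but replicate C with EGF lay close to the libraries without. The VEGFA call was lost without control replicate A or B with EGF, or A or C without (adjusted p up to 0.316). With BRCA2 siRNA it had 12.64, 13.41 and 11.89 with EGF and 12.38, 12.38 and 12.26 without, which overlapped, and gave -0.31 ± 0.39.

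P4HA1, a collagen prolyl hydroxylase subunit, fell by 0.25 ± 0.09 on the log2 scale with control siRNA (limma adjusted p = 0.0328), but gave 0.01 under quantile normalization (adjusted p = 0.947). P4HA1 lost its call without the low-value filter or the mean-variance trend, and with the 2 groups compared fitted alone. It also lost its call without control replicate A or B with EGF, control replicate A or C without, or BRCA2 siRNA replicate B without. NDRG1, CA9 (carbonic anhydrase IX) and ANKRD37 passed in neither comparison. Their differences with control siRNA were -0.20 ± 0.34, -0.14 ± 0.21 and 0.11 ± 0.21, and with BRCA2 siRNA -0.25 ± 0.30, -0.20 ± 0.19 and -0.19 ± 0.19. Genes next to them share 38.5% of the exon bases of CA9 and 35.2% of those of ANKRD37 in GENCODE 29.

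The stretch just before the start site was read from RefSeq (GRCh38.p14) to show how far the members carry the core of the hypoxia response element, ACGTG, to which HIF binds. The window ran from 250 bases before to 50 after the start, and ACGTG was searched on both strands. Within CACGTG, the E-box bound by MYC and by other factors, it counts on both. Of the 35 symbols 31 had at least 1 window in that table, 58 windows in all, some of them overlapping. ACGTG was in 24 windows (41.4%), from 20 genes. Among all 35116 windows of the table it was in 7518 (21.4%). The 100 bases before a start are shown for 6 genes with unlike results for EGF withdrawal under control siRNA. LDHA did not pass, GAPDH, ALDOC and HK2 fell, and SLC2A1 and ADM rose. For LDHA and HK2 the first of 2 windows is shown. Capitals mark ACGTG or its reverse complement CACGT.
LDHA (chr11:18394463-18394562, plus strand): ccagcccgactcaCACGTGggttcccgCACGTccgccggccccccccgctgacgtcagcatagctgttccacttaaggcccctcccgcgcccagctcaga
GAPDH (chr12:6535164-6535263, plus strand): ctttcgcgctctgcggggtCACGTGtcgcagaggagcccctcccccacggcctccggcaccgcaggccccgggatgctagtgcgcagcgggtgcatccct
ALDOC (chr17:28576896-28576995, minus strand): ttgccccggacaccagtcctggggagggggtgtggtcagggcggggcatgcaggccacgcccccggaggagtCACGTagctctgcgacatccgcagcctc
HK2 (chr2:74834027-74834126, plus strand): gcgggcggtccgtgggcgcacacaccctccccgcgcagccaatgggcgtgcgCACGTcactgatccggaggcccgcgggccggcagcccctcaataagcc
SLC2A1 (chr1:42958869-42958968, minus strand): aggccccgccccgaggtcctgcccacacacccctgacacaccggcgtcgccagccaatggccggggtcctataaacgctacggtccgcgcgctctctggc
ADM (chr11:10304973-10305072, plus strand): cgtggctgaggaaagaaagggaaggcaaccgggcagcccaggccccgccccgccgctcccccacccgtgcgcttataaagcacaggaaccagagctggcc

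The stretch of LDHA held 3 matches, of which 2 lie in the same CACGTG, and that of GAPDH held 2 in a single CACGTG. ALDOC and HK2 had 1 each. Neither SLC2A1 nor ADM, the members higher without EGF under both siRNAs, had a match in these 100 bases or in the whole window, nor did EGLN3. HK1, PGAM1, ENO1, LDHB and HIF1A, which fell with control siRNA, had none in any of their windows either, so the 6 genes shown do not stand for all that rose or fell. The sequence of the human reference is shown, not that of the cells, and a match or its lack is a description of these letters only.

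With EGF in the medium, no difference between the libraries labelled BRCA2 siRNA and the control libraries passed the test for any member. In limma 0 of 34 passed, and none had an unadjusted p of at most 0.05. Of all genes, 1 of 17950 passed (0.00557%), and 508 had an unadjusted p of at most 0.05. The members' differences ran from -0.26 (VEGFA) to 0.24 (PFKFB4), with a median of 0.07 (n = 3 and 3). BRCA2 itself gave 0.05 ± 0.12 here.

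Without EGF, glycolytic genes were higher in the libraries labelled BRCA2 siRNA than in the 2 control libraries, while SLC2A1 and ADM were lower. In limma 15 of 34 members were higher and 2 lower (n = 3 and 2), where 11.2% of all genes were higher and 9.36% lower, 20.5% in either direction. The median was 0.36, beside 0.01 for all genes. The 15 were HK1, HK2, PFKL, PFKP, ALDOA, ALDOC, TPI1, GAPDH, PGK1, PGAM1, ENO1, ENO2, LDHB, SLC16A3 and BNIP3. This comparison uses the same 2 control libraries without EGF as the withdrawal comparison with control siRNA, with the opposite sign, so the values of both are set side by side and not counted as separate evidence. Without control replicate A without EGF 1 member, PFKP, passed, and without replicate C 4 did: PFKP, ENO1, GAPDH and SLC2A1. The control group is then 1 library, and its spread is taken from the other groups. Over all genes 515 and 1085 passed then, of 3688 before. Without BRCA2 siRNA replicate A or replicate B without EGF 10 passed in each case, and with replicates B and C alone none did. BRCA2 was itself higher here, by 0.74 ± 0.13 (limma adjusted p = 0.00397; lost without control replicate A without EGF), and the direction of every difference is that of the labels.

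ENO2 had the largest rise, 0.93 ± 0.23 on the log2 scale (1.9-fold, limma adjusted p = 0.0166), from 8.0 and 7.63 in control libraries to 8.63, 8.84 and 8.75. In PFKP the rise was 0.66 ± 0.10 (1.58-fold, limma adjusted p = 0.00234), from 11.51 and 11.43 to 12.22, 12.13 and 12.03. PGAM1 went from 13.11 and 13.27 to 13.89, 13.85 and 13.72, a difference of 0.63 ± 0.17 (limma adjusted p = 0.0258). For ENO1 the values of 16.56 and 16.67 stood against 17.23, 17.12 and 17.07, a difference of 0.53 ± 0.10 (limma adjusted p = 0.00578). In these 4 genes every library labelled BRCA2 siRNA was above both control libraries. SLC2A1 was lower by 1.81-fold, at 12.04, 12.35 and 12.68 against 13.21 and 13.21 (limma adjusted p = 0.00395). ADM was lower by 1.49-fold, at 10.36, 10.72 and 10.99 against 11.28 and 11.25 (limma adjusted p = 0.0179). In both genes replicate A of the BRCA2 siRNA libraries was the lowest and replicate C the closest to control. Within replicate A the SLC2A1 difference was -1.17 and within replicate C -0.53. PFKP differed by 0.71 within A and 0.60 within C, and ENO2 by 0.63 and 1.13.

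Whether EGF withdrawal acted differently under the siRNAs was tested directly, by taking the control siRNA effect from the BRCA2 siRNA effect. In limma 2 of 34 members passed, both higher, where 1.38% of all genes were higher, 1.93% lower and 3.31% either way. Under quantile normalization 2 were higher and 1 lower, where 284 and 457 of 17857 genes were. A further count, of members with an unadjusted p of at most 0.05, was 11 in the fit with all libraries. Over all genes it was 3982 of 17950. HK2 gave 0.55 ± 0.12 (limma adjusted p = 0.0333), with a fall under control siRNA and a rise under BRCA2 siRNA. PFKP gave 0.64 ± 0.13 (limma adjusted p = 0.0309), with a fall of 0.98 under control siRNA and of 0.34 under BRCA2 siRNA. SLC2A1 (-0.73 ± 0.20, adjusted p = 0.0695), ENO1 (0.47 ± 0.13, 0.0782), GAPDH (0.46 ± 0.14, 0.0908) and ADM (-0.59 ± 0.19, 0.108) came next and did not pass. Under quantile normalization SLC2A1 and ENO1 passed and HK2 did not, so for these genes the call depends on the scaling. A p that misses the threshold does not show an equal response. Both calls, HK2 and PFKP, were lost on leaving out any of the same 7 libraries: control replicate A with EGF, control replicate A or C without, BRCA2 siRNA replicate A or C with EGF, or BRCA2 siRNA replicate A or B without. They were lost as well without the mean-variance trend and with replicates B and C alone, and that of HK2 also without a low-value filter and under quantile normalization (adjusted p up to 0.935 for HK2 and 0.91 for PFKP).

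Within the groups with EGF, several members differed between replicates more than between siRNAs. In VEGFA, replicate B had 13.54 (control) and 13.41 (BRCA2 siRNA), and replicate C 11.96 and 11.89. NDRG1, a stress-responsive differentiation gene, had 15.70 and 15.48 in replicate B and 14.35 and 14.51 in replicate C. PFKFB4 ran the other way, with 7.60 and 7.61 in replicate B and 9.40 and 9.27 in replicate C. The differences of replicate B minus replicate C were -0.85 under either siRNA for EGLN3, -0.75 and -0.68 for LDHA, and -0.78 and -0.58 for ENO2. Over the 2 siRNAs these gaps of B against C repeat closely, and VEGFA, NDRG1 and PFKFB4 had standard errors of 0.44, 0.34 and 0.51 with control siRNA. HIF1A was higher in replicate B, by 0.44 with control and 0.49 with BRCA2 siRNA. What the letters stand for beyond biological replicates is not given in the sources used here. The control libraries without EGF are A and C only.

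**Figure D3:**
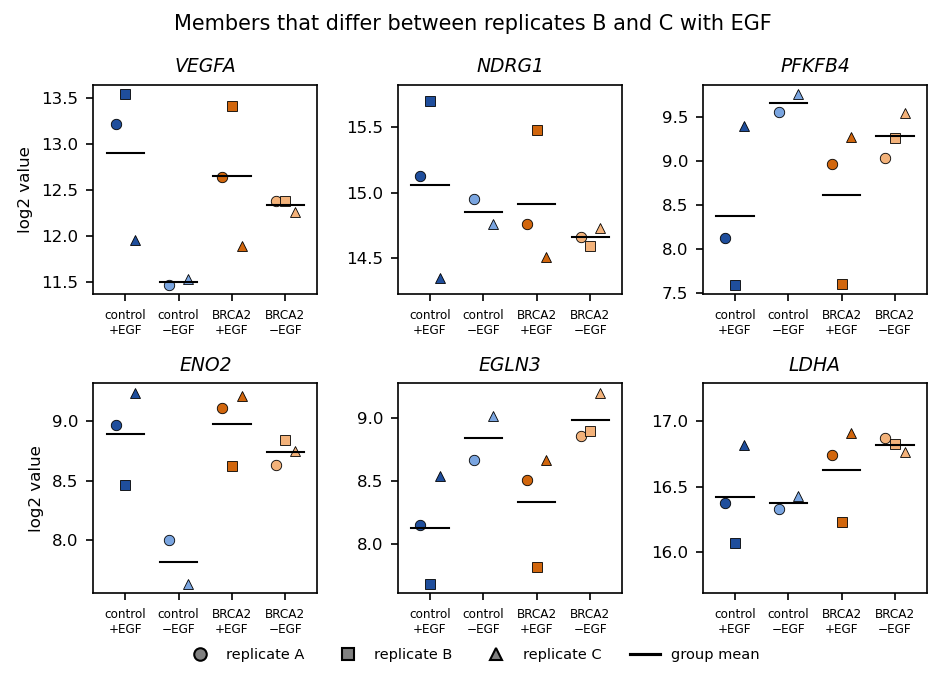
Log2 value in every library for 6 members in which replicates B and C with EGF lie apart; circles are replicate A, squares B, triangles C, and bars are group means. VEGFA and NDRG1 are higher in B, PFKFB4, ENO2, EGLN3 and LDHA higher in C, under both siRNAs.

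Lists of neighbouring pathways gave the surroundings of the members. In the tricarboxylic acid cycle 13 of 20 genes were lower and none higher without EGF under control siRNA (26.1% and 24.7% of all genes). Under BRCA2 siRNA 10 were lower and none higher (13.8% and 13.4% of all genes). The median was -0.49 with control siRNA. Fumarate hydratase FH fell by 1.01 ± 0.10, isocitrate dehydrogenase IDH2 by 0.98 ± 0.10 and the succinate dehydrogenase subunit SDHB by 0.93 ± 0.09 on the log2 scale. Without EGF, 7 of the 20 were higher in libraries labelled BRCA2 siRNA than in control (11.2% of all genes), IDH2 by 0.60 ± 0.10. Of the pyruvate dehydrogenase complex and its regulators 7 of 13 were lower and 3 higher with control siRNA (26.1% and 24.7% of all genes). DLAT, the transacetylase of the complex, fell by 0.75 ± 0.09 and PDHA1 by 0.60 ± 0.10, while the inhibitory kinase gene PDK4 rose by 2.61 ± 0.41 (6.11-fold, limma adjusted p = 0.00038). Under BRCA2 siRNA 6 of the 13 were lower and 1 higher (13.8% and 13.4% of all genes), with DLAT falling by 0.37 ± 0.08. In the pentose phosphate pathway 3 of 7 were lower with control siRNA, beside 26.1% of all genes, and TALDO1 fell by 0.49 ± 0.08. Under BRCA2 siRNA 1 of 7 was lower, near the 13.8% of all genes.

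Among other glucose transporters and glycolytic isoenzymes 8 of 19 were lower and 4 higher with control siRNA (26.1% and 24.7% of all genes), and 4 lower and 2 higher with BRCA2 siRNA (13.8% and 13.4%). Phosphoglucomutase PGM2 fell by 1.12 ± 0.10, BPGM, which makes 2,3-bisphosphoglycerate, by 0.95 ± 0.10, and TIGAR, a fructose-2,6-bisphosphatase, by 1.21 ± 0.12 with control siRNA. The transporter gene SLC2A12 was lower by 4.26-fold in libraries labelled BRCA2 siRNA without EGF than in control (limma adjusted p = 0.00381), a call lost without control replicate A without EGF. Among further HIF system genes 5 of 9 were higher and 1 lower with control siRNA (24.7% and 26.1% of all genes). They included ARNT, the partner subunit of HIF1A, which rose by 0.52 ± 0.08, and CITED2, which competes with HIF1A for its coactivator and rose by 0.91 ± 0.14. Under BRCA2 siRNA 4 of the 9 were higher (13.4% of all genes), EPAS1 (HIF2A) by 0.67 ± 0.13.

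Of further hypoxia response genes 11 of 39 were higher and 11 lower with control siRNA, with a median of 0.05, near the shares over all genes (24.7% and 26.1%). ZNF395 rose by 1.03 ± 0.08 and the histone demethylase gene KDM3A by 1.05 ± 0.12, and the collagen lysyl hydroxylase PLOD2 fell by 1.22 ± 0.11. Under BRCA2 siRNA 7 of the 39 were higher and 5 lower (13.4% and 13.8% of all genes), with ZNF395 rising by 0.63 ± 0.07 and PLOD2 falling by 0.79 ± 0.10. In libraries labelled BRCA2 siRNA without EGF 6 of the 39 were higher and 7 lower than in control (11.2% and 9.36% of all genes). ANGPTL4, an inhibitor of lipoprotein lipase, was higher there by 1.73 ± 0.19 (limma adjusted p = 0.00108). Of 3 MondoA glucose-sensing genes past the threshold, ARRDC4, an arrestin that restrains glucose uptake, rose by 0.90 ± 0.17 with control siRNA. MLX fell by 0.42 ± 0.10, a call lost without control replicate A without EGF, and MLXIP rose by 0.53 ± 0.12 with BRCA2 siRNA.

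**Figure D4:**
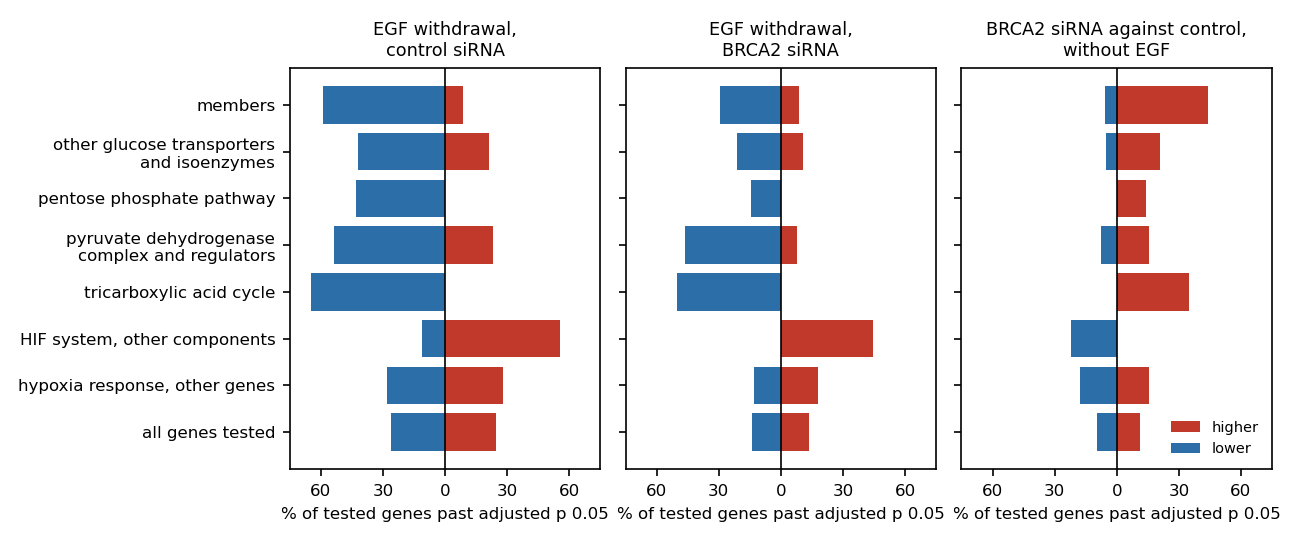
Percent of the tested genes of each list that were higher (red, to the right) or lower (blue, to the left) at an adjusted p of at most 0.05, in 3 comparisons, with all 17950 genes tested in the lowest bar. The members, the tricarboxylic acid cycle and the pyruvate dehydrogenase list lie to the lower side without EGF. In libraries labelled BRCA2 siRNA without EGF the members and the tricarboxylic acid cycle lie to the higher side.

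Copies of the members were counted apart. Of 89 pseudogenes named after a member 17 passed the value threshold. With control siRNA BNIP3P1 was lower, and LDHAP2, SLC2A3P4 (0.85 ± 0.20), GAPDHP43 (0.81 ± 0.26), GAPDHP61 (0.59 ± 0.18) and BNIP3P45 (0.97 ± 0.20) were higher. Under BRCA2 siRNA BNIP3P4 (-0.54 ± 0.18) and GAPDHP36 (-0.71 ± 0.21) were lower and GAPDHP55 (0.60 ± 0.18), GAPDHP61 (0.58 ± 0.16) and SLC2A3P4 (0.64 ± 0.18) higher. In libraries labelled BRCA2 siRNA without EGF BNIP3P1 was higher (0.65 ± 0.14) and LDHAP2 lower (-1.06 ± 0.19) than in control. In the test of the difference of effects LDHAP2 gave -1.29 ± 0.26 (limma adjusted p = 0.0307). Leaving out a library of the groups compared ended the calls of GAPDHP43 (control replicate A with or without EGF) and GAPDHP61 (control replicate A or C without EGF, or B with) under control siRNA. It ended the calls of all 5 pseudogenes under BRCA2 siRNA in at least 1 case, and those of LDHAP2 and BNIP3P1 between siRNAs without control replicate A without EGF. Of 12 antisense or divergent genes 7 passed the threshold. HK2-DT was lower (-0.98 ± 0.20) and MIF-AS1 higher (0.80 ± 0.20) with control siRNA. MIF-AS1 overlaps 61.9% of the exon bases of MIF, and whether the counting used strand is not given in the sources used here.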

How the data were processed

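Total RNA of 11 hTert-HME1 libraries was extracted with AllPrep, depleted of ribosomal RNA with RiboZero and made into ScriptSeq v2 libraries, per the labels' protocols. The authors' deposited table holds log2 values of 40460 Ensembl genes, from -2.94 to 20.62. Per the submitters' processing notes TopHat2 2.0.11, DESeq2, limma and hg19 were used, with no role or order stated. No counter, annotation or transform is given in the sources used here. In every gene the mean of the 4 replicate A libraries equalled that of the 7 replicate B and C libraries (largest difference 7.2e-09), so the deposited values had been centred. That centring moves replicate A by part of the group differences and takes up information the model does not count, hence the alternatives with a term for replicate A and with B and C alone.

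Symbols were matched through a table of gene names. The limma package, 3.58.1 (R 4.3.3) fitted 4 group means to the 11 libraries, with its empirical Bayes step set to follow the mean-variance trend (7 residual degrees of freedom). Genes at 10 or more on the linear scale in at least 2 libraries were tested (17950), two-sided, with Benjamini-Hochberg adjustment within each of 5 comparisons and a threshold of 0.05. The figure after ± is limma's moderated standard error, in log2 units. The p-values measure only the spread between these libraries of 1 cell line. Each result was refitted with another normalization, filter, spread estimate, set of samples or replicate term, and without each library in turn.

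The members, the 7 further pathway lists and the 4 marker lists were chosen with earlier results of these data known, so none is independent support. By rule, members past the threshold are named, with values in every library for up to 8 in each direction in the withdrawal comparisons and 4 in the others. Further lists give up to 3 genes with the smallest p in a comparison. LDHA, NDRG1 and PFKFB4 are shown in full, chosen after their values were seen. In EGF withdrawal with control siRNA 24.7% of all genes were higher and 26.1% lower. Of the 11 basal markers 5 were higher and 2 lower there, among them KRT14 at 1.37 ± 0.12. Of 6 luminal markers 3 were higher and 1 lower. Of 8 fibroblast markers 7 were higher, COL1A1 by 3.05 ± 0.24. The 2 leukocyte or endothelial markers past the threshold, CD14 and KDR, were higher. Sequences came from RefSeq promoter windows (GRCh38.p14); since that build differs from hg19, no other coordinates are given.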

Additional observations from a re-analysis of the deposited data

Results flagged for a closer look

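The effect of EGF withdrawal differed between the siRNAs for 8 of the members, further pathway genes, pseudogenes and antisense genes named here by the limma test of the difference itself (BRCA2 siRNA minus control siRNA, log2). Over all genes 595 of 17950 (3.31%) passed the same test. Of the cell type markers KRT8 (-0.76), KDR (-2.07) and DCN (-1.07) passed too. Among the members those past it were PFKP (0.64, adjusted p = 0.0309) and HK2 (0.55, adjusted p = 0.0333). ANGPTL4, of the further hypoxia genes, gave 1.43 ± 0.26 (adjusted p = 0.0276), with a fall of 1.26 under control siRNA. PDK4, a kinase of pyruvate dehydrogenase, gave -2.53 ± 0.55 (adjusted p = 0.0369), with a rise of 2.61 under control siRNA. LDHAP2, a pseudogene of LDHA, gave -1.29 ± 0.26 (0.0307). PGAM5 gave 0.62 ± 0.13 (0.0369), IDH2 0.55 ± 0.13 (0.0468) and ACO1 0.43 ± 0.10 (0.047). Each of these calls was lost without control replicate A or C without EGF, and with replicates B and C alone, where adjusted p was 0.908 to 0.935. No group has 4 libraries, so single libraries far from their group were not looked for.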

How the results depend on the processing

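Counts of members past the threshold moved most with fewer samples. With replicates B and C alone, which leaves 7 libraries, 6 members passed in EGF withdrawal with control siRNA (23 in the reported fit), 0 in withdrawal with BRCA2 siRNA (13), 0 for the siRNAs without EGF (17) and 0 for the difference of effects (2). Quantile normalization, under which 4029 and 3533 of 17857 genes passed, gave 7 for withdrawal with BRCA2 siRNA and 10 for the siRNAs without EGF. With the 2 groups compared fitted alone the latter had 27, and without a mean-variance trend the difference of effects had 0. Leaving out each library in turn gave 17 to 24, 6 to 15, 0 to 0, 1 to 19 and 0 to 5 members in the order control withdrawal, BRCA2 siRNA withdrawal, siRNAs with EGF, siRNAs without EGF and difference of effects. Withdrawal with BRCA2 siRNA had 6 without BRCA2 siRNA replicate A with EGF, and 8 without its replicate B or C without EGF, and the difference of effects had 5 without control replicate C with EGF and 4 without BRCA2 siRNA replicate C without EGF. The one reversal was P4HA1 in withdrawal with control siRNA, at 0.008 under quantile normalization (adjusted p = 0.947). Deviations of same-letter libraries correlated between -0.366 and 0.7. With EGF the replicate B libraries correlated at 0.695 and the replicate C libraries at 0.7, against -0.642 and -0.746 between B and C. These letters thus share a part of the spread with EGF, for which the reported fit has no term. The centring of replicate A also shapes the values within A, and the 2 control libraries without EGF mirror each other. The range therefore cannot decide whether the letters pair all libraries. The fit with a replicate block gave 23, 14, 0, 19 and 3 members in the same order, and 8895, 5457, 0, 4183 and 930 of all genes. In it PFKFB4 passed in withdrawal with control siRNA and P4HA1 did not, EGLN3 passed in withdrawal with BRCA2 siRNA, and SLC2A1 in the difference of effects. For the siRNAs without EGF GPI, LDHA and PKM passed and PFKL did not. Leaving out both replicate B or both replicate C libraries with EGF, chosen after seeing the data, gave 23 and 24, 15 and 16, 0 and 0, 22 and 22, and 3 and 3. Over all genes these counts were 9181 and 10227, 4951 and 6657, 0 and 0, 5139 and 5139, and 651 and 989. Over all genes, the counts with replicates B and C alone were 1977 and 46 for the withdrawal comparisons (9123 and 4873 in the reported fit), and 0 for the siRNAs without EGF (3688) and for the difference of effects (595). The siRNAs without EGF gave 6781 with these groups fitted alone, and the difference of effects 375 without the trend, 930 with the replicate block and 989 without replicate C with EGF. Over all genes the difference of effects ranged from 0 (without control replicate A with EGF, A or C without EGF, or BRCA2 siRNA replicate C with EGF) to 1607 (without control replicate C with EGF). It was 1, 62, 157 and 1042 without BRCA2 siRNA replicate B without EGF, A without, A with, and C without. Withdrawal with BRCA2 siRNA fell to 2228 without BRCA2 siRNA replicate A with EGF, and to 2864 and 2647 without its replicates B and C without EGF. Withdrawal with control siRNA fell to 6073 without control replicate A without EGF. The siRNAs without EGF had 1662 and 2071 without BRCA2 siRNA replicates A and B without EGF. For the difference of effects, which needs all 4 groups, no fit of fewer groups could be run. The causes were not tested. Depth is unknown, so its limits cannot be given.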
